A study of Mus musculus with 282 samples.

Results

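Expression of 9 genes that mark astrocytes was examined in the hypothalamus of mice from the HMDP, the Hybrid Mouse Diversity Panel, which brings together inbred and recombinant inbred strains. The genes, chosen by name, were Gfap, Vim, Aqp4, Gja1, Slc1a2, Slc1a3, Aldh1l1, Aldoc and S100b, which are 9 of the 14079 genes and carry 45 of the 51024 transcripts of the expression table. RNA from the whole hypothalamus of 282 mice was sequenced as 1 library per mouse. All mice were male and were fed a high fat diet, so that neither sex nor diet varied. The strain was given for all but 1 mouse, and the 99 strains comprised 18 AXB/BXA, 43 BXD, 6 BXH, 7 CXB and 25 inbred strains. Of these strains 84 had 3 mice, 13 had 2 and 2 had 1. The recombinant inbred sets descend from C57BL/6J crossed with A/J (AXB/BXA), DBA/2J (BXD), C3H/HeJ (BXH) or BALB/cJ (CXB). The labels do not say whether mice of a strain were housed or sampled apart, so p-values measure the spread between mice, which may be partly technical.

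Astrocytes are glial cells that buffer potassium and take up glutamate around synapses, ensheath blood vessels with their endfeet and supply neurons with metabolites. In the hypothalamus they take part in the sensing of nutrients and hormones, and with injury, inflammation or overfeeding they can become reactive, a state commonly recognised by more of the intermediate filament proteins GFAP and vimentin. None of the 9 genes is exclusive to astrocytes: vimentin is also made by tanycytes, ependymal cells, endothelium and fibroblasts, and S100B by oligodendrocytes. All values are FPKM, the fragments of a gene scaled by transcript length and library size, which can be compared between genes. In bulk tissue, fewer cells of a type and less RNA per cell cannot be told apart.

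Several libraries stood apart before any gene was considered. Mice OB-273 and OB-274 of CXB-6/ByJ differed by at most 0.0071 on the log2 scale over 14079 genes and were counted as 1 sample, which left 280 libraries with a strain and 1 without. Mice OB-547 (BXD-12/TyJ) and OB-422 (CXB-3/ByJ) had the lowest length tilt, the mean log2 deviation of genes with transcripts of at least 4000 nt minus that of genes of at most 1500 nt, at -1.97 and -1.16. The other 279 libraries lay between -0.44 and 0.21. In 18 mice, which are all mice of BXD62, BXD70, BXD75, BXD85, BXD-9/TyJ and BXHA1 and 1 of 3 of BXD87, unannotated isoforms held 9.79 to 11.2% of transcript FPKM, against 20.3 to 24.1% in the other 263. Over 269 genes picked for a strain share of variance above 0.85 under the strain labels, 276 of 278 mice were most like their own strain. That choice favours agreement with the labels, so the count is no independent check of them. The exceptions were mouse OB-678, labelled CXB-7/ByJ, with a mean r of -0.0049 with its own strain and 0.91 with BXA-12/PgnJ, and mouse OB-585, labelled PL/J, with 0.54 and 0.62 with BXD-5/TyJ. The main results that rest on these libraries are given with and without them.

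All 9 genes were expressed in every mouse. In mm10, Gfap (chr11:102887336-102897200) and Aldoc (chr11:78322772-78327781) lie on chromosome 11, Vim (chr2:13573898-13582826) and Slc1a2 (chr2:102658173-102791019) on chromosome 2, and Gja1 (chr10:56377300-56390419) and S100b (chr10:76253653-76261159) on chromosome 10. Slc1a3 (chr15:8634121-8710764), Aldh1l1 (chr6:90550789-90600203) and Aqp4, on chromosome 18, have no other member on their chromosome. The most abundant was Aldoc, which encodes the brain form of the glycolytic enzyme aldolase, at 465.9 ± 94.2 FPKM (SD, over 280 libraries with a strain and 1 without). Next came the glutamate transporters Slc1a2 (GLT-1), at 161.7 ± 21.1 FPKM, and Slc1a3 (GLAST), at 120.2 ± 14.4 FPKM. The calcium-binding protein S100b (77.5 ± 12.3 FPKM), the intermediate filament Gfap (72.5 ± 22.8 FPKM) and the gap junction protein Gja1 (55.5 ± 9.18 FPKM) formed a middle group. The water channel Aqp4 (30.05 ± 4.84 FPKM), the intermediate filament Vim (27.2 ± 6.76 FPKM) and the folate enzyme Aldh1l1 (16.8 ± 2.49 FPKM) were lowest. Aldoc exceeded Slc1a2 in every mouse, but neighbours in the order were not always separate. S100b exceeded Gfap in 176 of these mice, Gfap exceeded Gja1 in 210 and Aqp4 exceeded Vim in 193. Each of these 3 mean differences, 0.15, 0.33 and 0.16 on the log2 scale, was smaller than its SD over mice.

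Strains differed in 8 of the 9 genes (limma moderated F test, Benjamini-Hochberg adjusted over all genes), where 74.9% of all genes passed the same test. The share of variance that lay between strains (intraclass correlation of log2(FPKM + 1)) was highest for Gfap at 0.66, above that of 94.7% of all genes. It was 0.52 for Aldh1l1, 0.47 for Slc1a2, 0.44 for Aqp4, 0.40 for Aldoc, 0.34 for S100b and 0.27 for Vim, against a median of 0.22 over all genes. The genes with the lowest shares were Slc1a3 at 0.15 (adjusted p = 0.0155) and Gja1 at 0.10 (adjusted p = 0.065 by limma). Without OB-547 the share of Slc1a3 was 0.26 and that of Gja1 0.11, and Gja1 then passed at an adjusted p of 0.0414 (limma). With quantile normalization the share of Slc1a3 was 0.095 and it no longer passed (adjusted p = 0.0741, limma), which left 7 genes. Gja1 also passed with OB-273 and OB-274 as 2 mice, at an adjusted p of 0.0487.

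**Figure D1:**
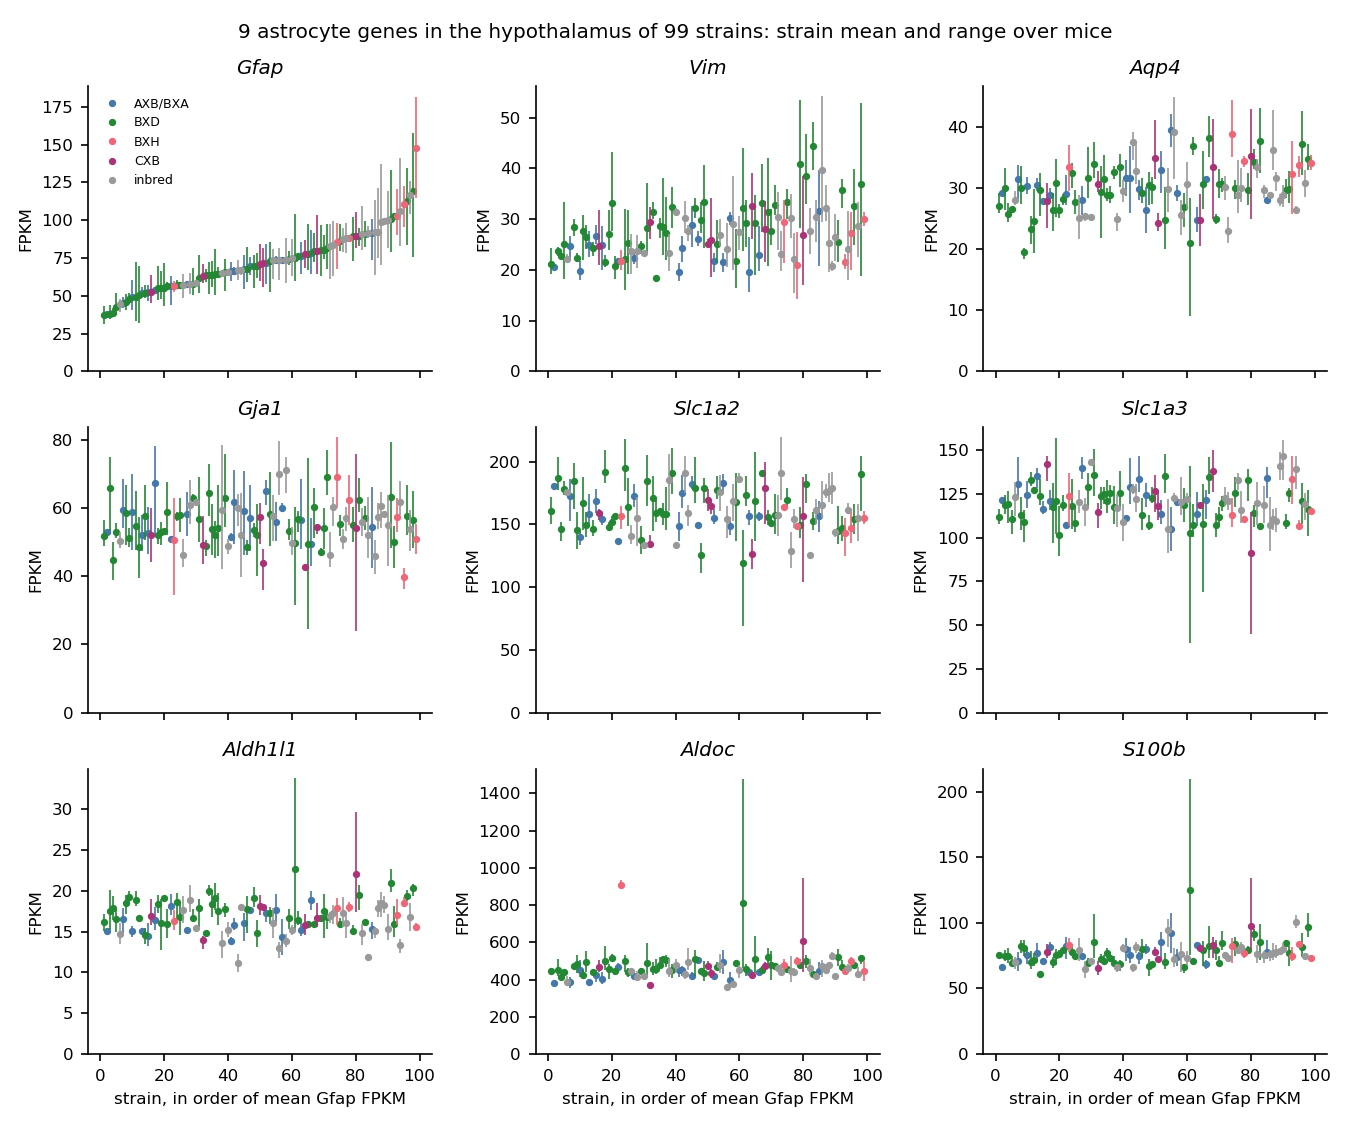
FPKM of the 9 genes (vertical axes, from 0) in the 99 strains, ordered in every panel by mean Gfap; points are strain means, lines run from the lowest to the highest mouse, and colours give the strain set. Gfap strain means climb from 37.5 to 148 FPKM, while the long lines for Aldoc, S100b and Slc1a3 are the strains of OB-547 and OB-422, and the lone high Aldoc point is BXH-6/TyJ.

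Gfap spanned the widest range of strain means, 3.94-fold. The lowest strain was BXD86, whose mice had 31.5, 37.9 and 43.3 FPKM. BXD87 had 34.3, 35.7 and 43.7 FPKM, and BXD-15/TyJ had 36.4, 37.1 and 42.1 FPKM. At the high end, BXH-19/TyJ had 114.7 and 181.2 FPKM, BXD-40/TyJ had 75.9, 124.1 and 157.6 FPKM, and BALB/cJ had 104.3, 118.5 and 126.2 FPKM. None of the 9 mice of the low strains overlapped any of the 8 mice of the high strains, which were picked for this measure. Mice of a high strain differed more in FPKM than mice of a low strain.

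Vim varied less between strains and more within them, with an SD of 0.24 over strain means and 0.28 within strains on the log2 scale. BXD-9/TyJ was lowest, at 18.3, 18.5 and 18.5 FPKM, and was 1 of the strains with few unannotated isoforms. BXD-6/TyJ was highest, at 39.7 and 49.2 FPKM. In DBA/2J, the third highest strain, the mice ranged from 29.5 to 54.3 FPKM, which covers much of the range of all strains.

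Aqp4, which lines the endfeet on blood vessels, was lowest in BXD85 at 18.3, 20 and 20.2 FPKM. Its highest strains were BXA-12/PgnJ with 36.7 and 42.1 FPKM, SM/J with 31.5, 40.9 and 44.9 FPKM, and BXH-4/TyJ with 35, 37 and 44.3 FPKM. The low mean of BXD-12/TyJ came from OB-547 at 9.05 FPKM, since the other mice of that strain had 25.8 and 28.3 FPKM. Gja1, which encodes connexin 43, had its lowest strain mean in BXH-9/TyJ, with mice at 36.2, 41.0 and 42.4 FPKM, and its highest in KK/HlJ, with mice at 64.2, 74.05 and 74.9 FPKM. Single mice of other strains lay beyond both, from 24.0 FPKM in OB-422 to 80.7 FPKM.

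The strain means of the glutamate transporters spanned 1.64-fold for Slc1a2 and 1.61-fold for Slc1a3, with low ends that included the strains of OB-547 and OB-422. Slc1a2 was highest in BXD61, at 176.9, 190.6 and 217.8 FPKM. Low strains were BXD51, at 111.2, 130.1 and 135.3 FPKM, and SWR/J, at 122.5, 126.9 and 127.5 FPKM. Slc1a3 was highest in NON/LtJ, at 133.3, 151.8 and 155.8 FPKM. Its lowest mean, in CXB-3/ByJ, rested on OB-422 at 45.2 FPKM beside mice of the same strain at 113.5 and 115 FPKM. BXD-32/TyJ, at 89.8, 97.6 and 118 FPKM, came next. Among the 3 lowest strains of each transporter, only BXD-12/TyJ, the strain of OB-547, was shared.

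Aldh1l1, which oxidises a folate derivative, was lowest in CE/J at 10, 11.3 and 12.3 FPKM and in SEA/GnJ at 11.4, 11.8 and 12.3 FPKM. Both lay below every mouse of BXD70, a high strain with 19.8, 20.5 and 22.7 FPKM, but these strains were picked for this measure. All mice of BXD70 are among those with few unannotated isoforms. S100b was lowest in BXD48, at 59.3, 61.9 and 62.1 FPKM. Its highest strain apart from those of OB-547 and OB-422 was RIIIS/J, at 96.3, 99.8 and 105.8 FPKM. In both genes the top strain mean belonged to BXD-12/TyJ, where OB-547 had 33.8 FPKM of Aldh1l1 and 209.8 FPKM of S100b.

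Aldoc was set apart by 1 strain. The BXH-6/TyJ mice had 896.5, 902 and 932.8 FPKM, against 461.1 ± 82.5 FPKM (SD) in all other mice. Only OB-547 and OB-422 reached that level (1476 and 946.6 FPKM), and all further mice lay between 353.3 and 633 FPKM. The strain share of Aldoc was 0.40 with all mice, 0.22 without BXH-6/TyJ and 0.37 without BXH-6/TyJ, OB-547 and OB-422. Among the BXH parents, C57BL/6J had 452.5, 457.5 and 567.6 FPKM and C3H/HeJ had 448.4, 492.5 and 493.1 FPKM. BXH-6/TyJ was above both.

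The neighbours of Aldoc on chromosome 11 were then examined, a choice made after the values were seen. The next locus, which holds Pigs and Unc119, was 2.13-fold higher in BXH-6/TyJ than in the other mice (105.2, 111.9 and 113.1 against 51.7 ± 5.11 FPKM), and the locus before, 2610507B11Rik, was 1.38-fold higher (68.4, 69.7 and 73.8 against 51.1 ± 3.57 FPKM). No other mouse reached the lowest BXH-6/TyJ mouse in either locus. Beyond them, Sdf2 had a ratio of 0.95 and Slc46a1 of 1.10. Farther out, Proca1 had a ratio of 0.66 (3.93, 4.14 and 4.27 against 6.27 ± 2.03 FPKM), inside the range of the other mice. Among the named loci measured, the raised ones were therefore 3 neighbours, between chr11:78261723 and chr11:78349378 in mm10. The next named locus, Slc46a1, begins only at chr11:78465697, so the end of the raised stretch on that side was not established. The DNA copy number there was not measured. Within Aldoc, the main transcript had 1.93-fold the level of other mice, and each of the 4 unannotated isoforms had a larger ratio, up to 2.58-fold. So did a scarce annotated transcript of 3 exons (2.59-fold, at 3.39 to 3.88 against 1.42 ± 0.72 FPKM). Its remaining annotated transcripts had 0.51 to 1.74-fold. The other mice include those with few unannotated isoforms, which lowers the mean that these isoforms are set against.

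**Figure D2:**
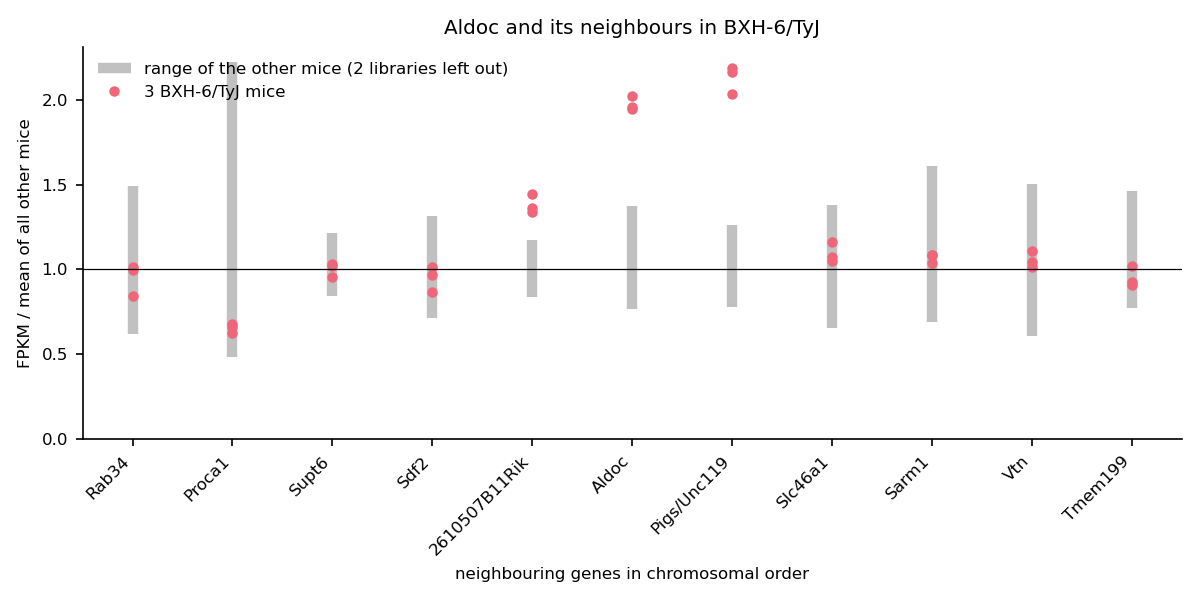
FPKM of Aldoc and 5 named loci on either side, divided by the mean of all other mice (vertical axis, from 0), in chromosomal order but not to distance; red points are the 3 BXH-6/TyJ mice and grey bars the range of the other mice without OB-547 and OB-422. Only 2610507B11Rik, Aldoc and Pigs/Unc119 have all 3 points above the grey bar.

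The parents of the recombinant inbred sets were compared with C57BL/6J, with 3 mice in each strain and 36 contrasts over the 9 genes. In these contrasts 6.85% of all genes passed for DBA/2J, 7.98% for A/J, 7.56% for C3H/HeJ and 6.75% for BALB/cJ. Only 1 of the 36 member contrasts passed. Gfap was higher in BALB/cJ, at 104.3, 118.5 and 126.2 FPKM, than in C57BL/6J, at 64, 68.2 and 68.7 FPKM, without overlap, by 0.78 ± 0.21 (SE) on the log2 scale (limma adjusted p = 0.00582). A/J had 39.5, 45.6 and 47.9 FPKM of Gfap, all below C57BL/6J, by -0.59 ± 0.21 on the log2 scale (limma adjusted p = 0.0579). Without OB-547, 3 contrasts passed, with Gfap (adjusted p = 0.0466) and Aldoc (-0.34 on the log2 scale, adjusted p = 0.0265) lower in A/J by limma.

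Transcripts were examined next. Levels of 29 of the 45 transcripts differed between strains (background 45.9% of all transcripts), as did the share of the gene's transcript FPKM for 25 of 44 transcripts (background 36.9%). Leaving out the 18 mice with few unannotated isoforms, a choice made after seeing the data, gave 19 transcripts (background 25.7%) and 15 shares (background 17.1%). Of the 45 transcripts, 26 were unannotated isoforms, and 23 of these had at least 1 intron that lay 1 to 10 nt from an annotated intron with both ends moved alike. This also held for 63.8% of all 21234 unannotated isoforms.

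S100b showed most plainly how the 18 mice bear on these shares. Its unannotated isoform, which begins upstream of the annotated one, held 0.69 to 3.84% of S100b in the 18 mice and 14 to 67.2% in the others, without overlap. The annotated transcript held 96.2 to 99.3% in the 18 mice. The same split appeared within BXD87, where 1 mouse had 1.07% and the others 45.6 and 51.5%. Aldoc gave 0 to 1.02% against 5.30 to 26.3% for its 4 unannotated isoforms together, and Aldh1l1 gave 0% in all 18 mice against a median of 19.7%. Gene levels of S100b overlapped fully, with medians of 79.3 FPKM in the 18 mice and 75.6 FPKM in the others. Gja1, Aldh1l1, Slc1a2 and Gfap overlapped too, but some medians lay farther apart. They were 62.6 against 54.2 FPKM for Gja1 and 18.8 against 16.4 FPKM for Aldh1l1. For Slc1a2 they were 148.9 against 161.3 FPKM, and for Gfap 68.3 against 69.1 FPKM. Strain and library cannot be told apart in most of the 18 mice.

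Gfap behaved otherwise, and the share of 1 of its known transcripts had the highest intraclass correlation over strains among the 44 transcript shares tested. The main transcript, Gfap-201, has 9 exons and held 94.6 ± 1.91% of Gfap. An 8-exon transcript, Gfap-202, held 3.48 ± 1.57% and skips exons 8 and 9 for an alternative last exon at chr11:102890166-102891520 (minus strand, mm10). It has the structure of the isoform known as GFAP delta, whose protein differs from the main form in its tail.

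The share of Gfap-202 had an intraclass correlation over strains of 0.83 (limma adjusted p = 1.1e-45), and its level one of 0.86. Without the 18 mice these were 0.83 and 0.86. In the AXB/BXA set the strain means fell apart at a gap of 3.22 percentage points, with 7 strains at 0.199 to 0.721% and 11 at 3.94 to 7.17%, and no mouse of the lower strains (0 to 1.05%) overlapped one of the upper (3.23 to 8.79%). Its parents had 0.33, 0.65 and 1.26% in A/J and 3.85, 4.95 and 5.60% in C57BL/6J. The parents thus lay on either side of the gap. In FPKM, the AXB/BXA strain means of Gfap-202 were 0.093 to 0.42 in the lower strains and 2.78 to 3.97 in the upper. The lower values are thus close to 0, where estimates for a scarce transcript are uncertain.

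Gaps between strain means were narrower in the other sets. In the BXD set the widest gap left 25 strains at 1.40 to 2.98% and 18 at 3.90 to 5.47%, with some overlap between mice, and the parent DBA/2J had 2.16, 2.33 and 2.38%. Of the BXH strains, 2 had 1.94 and 1.96% and 4 had 3.64 to 4.34%, where the parent C3H/HeJ had 1.31, 1.81 and 2.65%. All CXB strains lay between 3.88 and 5.15%, and their parent BALB/cJ had 4.73, 5.11 and 5.14%, close to C57BL/6J. The share of Gfap-202 and the level of Gfap had r = 0.43 (rho = 0.33) over 99 strain means and r = 0.0069 over 280 deviations from the strain mean, as a description of measures that share the Gfap reads.

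**Figure D3:**
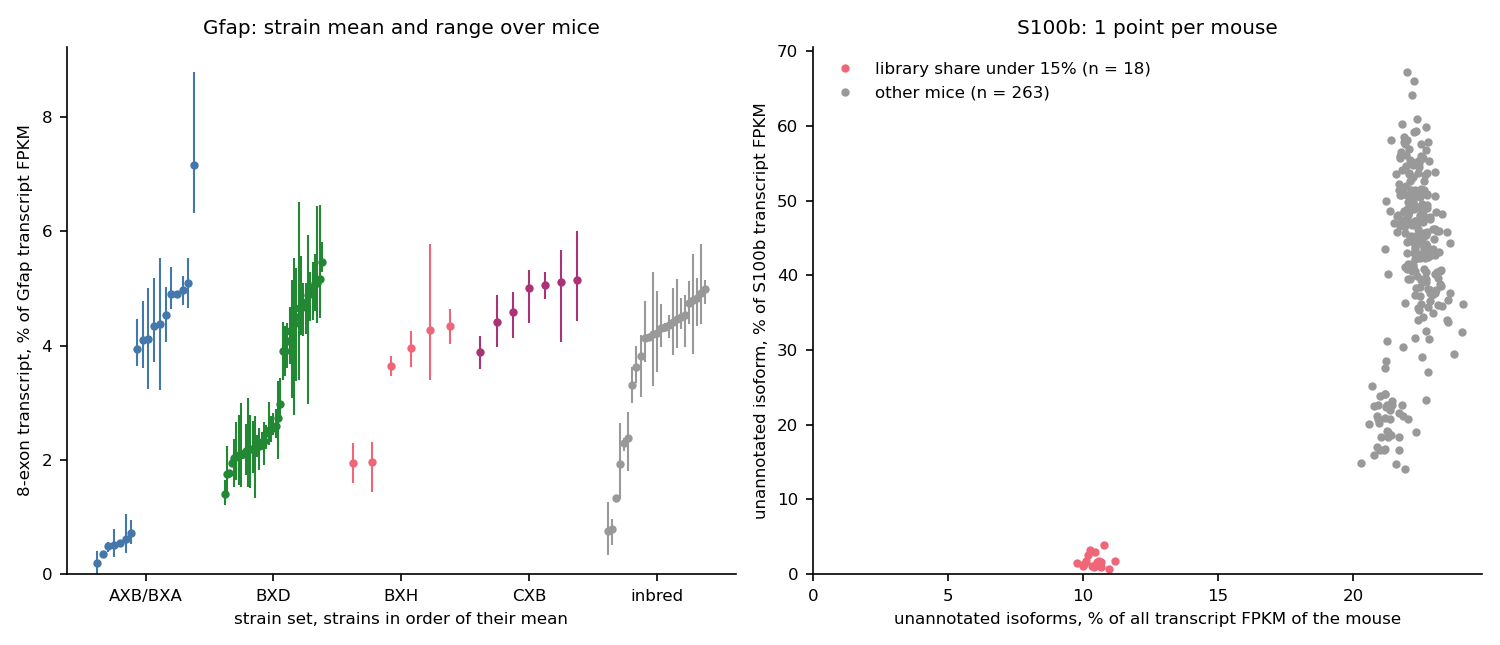
Left, share of Gfap transcript FPKM in the 8-exon Gfap-202 (percent) by strain set, with strain means as points and the range over mice as lines; right, share of S100b in its unannotated isoform against the share of all transcript FPKM in unannotated isoforms, 1 point per mouse. On the left the AXB/BXA strains form a group under 1.05% and a group above 3.23%, and on the right the 18 mice (red) lie apart at 9.79 to 11.2%.

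Which genes followed Gfap was asked first over the means of 99 strains. Vim (r = 0.40, rho = 0.40), S100b (r = 0.36, rho = 0.38) and Aqp4 (r = 0.34, rho = 0.35) were higher in strains with more Gfap, which was so for 3 of the 8 other members and for 0.824% of all genes. Permutation p values of r were 8e-05, 0.00027 and 0.00054, and adjusted p values over all genes were 0.016, 0.0357 and 0.0458 (limma). These and the later p values over strain means treat the 99 strains as unrelated. Recombinant inbred strains of a set share parents, so the p values may be too small. The study's mapping used a kinship matrix for such structure, which was not done here. Per unit of log2 Gfap, the log2 level was higher by 0.25 ± 0.06 (SE) for Vim, 0.13 ± 0.03 for S100b and 0.17 ± 0.05 for Aqp4. No member was lower in strains with more Gfap, against 0.376% of all genes.

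The remaining members had weak relations with Gfap over strains. Aldoc had r = 0.16 (permutation p = 0.108), Aldh1l1 r = 0.038 and Gja1 r = 0.022. The glutamate transporters had r = -0.10 for Slc1a2 (permutation p = 0.321) and r = -0.062 for Slc1a3 (permutation p = 0.542). Without BXH-19/TyJ and BXD86, the strains farthest from the median of Gfap, r was 0.38 for Vim, 0.39 for S100b and 0.32 for Aqp4, and Aqp4 then had an adjusted p of 0.0793 (limma). Aqp4 stood at the edge of the threshold and also missed it without the 18 mice (adjusted p = 0.0726) and without OB-678 and OB-585 (adjusted p = 0.0562). S100b missed it with quantile normalization (adjusted p = 0.0525), with mapped reads and unique percentage as covariates (adjusted p = 0.0843) and with FPKM without log (adjusted p = 0.0777, limma).

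**Figure D4:**
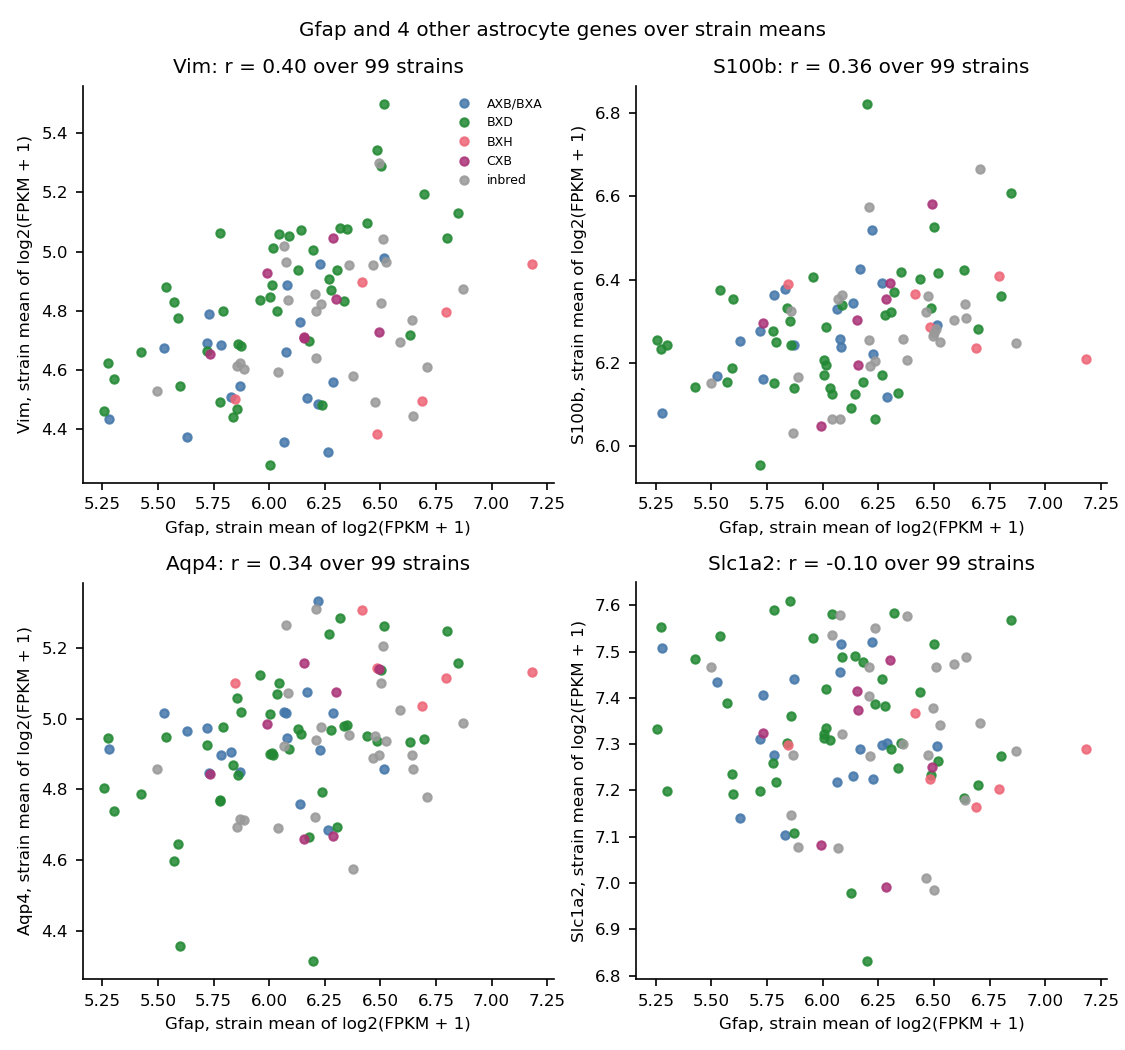
Strain means of log2(FPKM + 1) of Vim, S100b, Aqp4 and Slc1a2 (vertical axes, not from 0) against Gfap (horizontal axes), 1 point per strain, coloured by strain set. Vim, S100b and Aqp4 rise with Gfap with r between 0.34 and 0.40 and wide scatter, and Slc1a2 has r = -0.10.

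By strain set, Vim had r with Gfap of 0.62 in 43 BXD strains, 0.27 in AXB/BXA, 0.55 in BXH, 0.26 in CXB and 0.24 in inbred strains. S100b had 0.39 in BXD, 0.45 in AXB/BXA, 0.65 in CXB and 0.44 in inbred strains, but -0.60 in the 6 BXH strains. Aqp4 had 0.45 in BXD, 0.03 in AXB/BXA, -0.11 in BXH, 0.28 in CXB and 0.21 in inbred strains. Sets of 6 or 7 strains leave these values imprecise. Within strains, the slope on Gfap did not differ between sets for any member, and 0% of all genes passed that test.

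Mice of the same strain were compared next, through deviations from their strain mean in 280 mice. Vim (r = 0.52) and S100b (r = 0.45) again followed Gfap, each with a permutation p of 1e-05, the smallest the resampling can give, and adjusted p values of 3.4e-10 and 2.4e-07 (limma). Aldoc was higher with Gfap (r = 0.26, adjusted p = 0.00499), and Slc1a2 (r = -0.22, adjusted p = 0.0173) and Slc1a3 (r = -0.18, adjusted p = 0.0479) were lower (limma). Thus 3 members were higher, where 14% of all genes were, and 2 were lower, where 13.1% were. Aqp4 had r = 0.13 (permutation p = 0.197), Aldh1l1 r = 0.13 (permutation p = 0.0911) and Gja1 r = -0.087 (permutation p = 0.27).

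Part of this pattern rested on 1 library. Without OB-547, Aldoc (r = 0.19, adjusted p = 0.0856), Slc1a2 (r = -0.16, adjusted p = 0.171) and Slc1a3 (r = -0.098, adjusted p = 0.44) no longer passed, while Aqp4 did (r = 0.26, adjusted p = 0.0143, limma). Vim and S100b then had r = 0.50 and 0.43. Slc1a3 also missed the threshold without OB-678 and OB-585 (adjusted p = 0.0556, limma). In OB-547 itself Gfap was 103.8 FPKM beside 59.6 and 61.5 FPKM in the other mice of its strain, and Slc1a3 was 39.8 FPKM beside 128.2 and 140.8 FPKM.

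The length tilt of the library moved with the members in all mice. Within strains its r was -0.84 with Aldoc, -0.65 with S100b, -0.55 with Aldh1l1, -0.41 with Vim and -0.30 with Gfap, and 0.80 with Slc1a3, 0.77 with Slc1a2, 0.59 with Gja1 and 0.56 with Aqp4. The mean transcript length ran from 1280 nt for Vim to 10800.2 nt for Slc1a2, but Aldh1l1 (3237 nt) went against the tilt and the shorter Gja1 (3105 nt) with it. Without OB-547 and OB-422, r was -0.63 for Aldoc, -0.42 for Vim, -0.25 for Gfap, 0.67 for Slc1a2, 0.54 for Slc1a3 and 0.53 for Gja1. It was much smaller for S100b (-0.29), Aldh1l1 (-0.24) and Aqp4 (0.22), whose relation to the tilt rested largely on these 2 libraries. With the tilt as a covariate, added after seeing the data, the members that followed Gfap within strains were Vim (r = 0.45), Aqp4 (r = 0.38) and S100b (r = 0.35), with limma adjusted p values of 8.2e-07, 8.9e-05 and 0.00059. Over strain means Aqp4 alone then passed (r = 0.39, adjusted p = 0.0293), with r = 0.33 for Vim (adjusted p = 0.102) and 0.26 for S100b (adjusted p = 0.267, limma).

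Among themselves, the 9 genes form 36 pairs, whose correlations are given as a description over values from shared libraries. Over strain means the strongest were Aldh1l1 with Aldoc (r = 0.48), Aldoc with S100b (r = 0.47) and Gfap with Vim (r = 0.40), and 18 of the 36 were above 0. Without OB-547 and OB-422 these r were 0.41, 0.35 and 0.39, and 24 of the 36 were above 0. Gfap with S100b and Gfap with Aqp4 (each r = 0.37) then exceeded Aldoc with S100b. Within strains the members other than Gfap were set in 2 blocks by the sign of their r with the length tilt in these same mice. The signs of their pairs were therefore in large part set by that choice. Gfap, with r = -0.30 with the tilt, was left out of the blocks. The membrane proteins Aqp4, Gja1, Slc1a2 and Slc1a3, with tilt r above 0, had 6 of 6 pairs above 0 (r = 0.29 to 0.58). Vim, Aldh1l1, Aldoc and S100b, with tilt r below 0, had 6 of 6 pairs above 0 (r = 0.27 to 0.67). All 16 pairs across the blocks were below 0 (r = -0.71 to -0.049). Given the tilt, the pairs across the blocks had 11 of 16 above 0, and the pairs of membrane proteins ranged from -0.32 to 0.21. The pairs of Vim, Aldh1l1, Aldoc and S100b then had 6 of 6 above 0 (r = 0.0065 to 0.40). Without OB-547 and OB-422, 5 of the 16 pairs across the blocks were above 0, as were 4 of 16 by rank correlation over all mice.

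**Figure D5:**
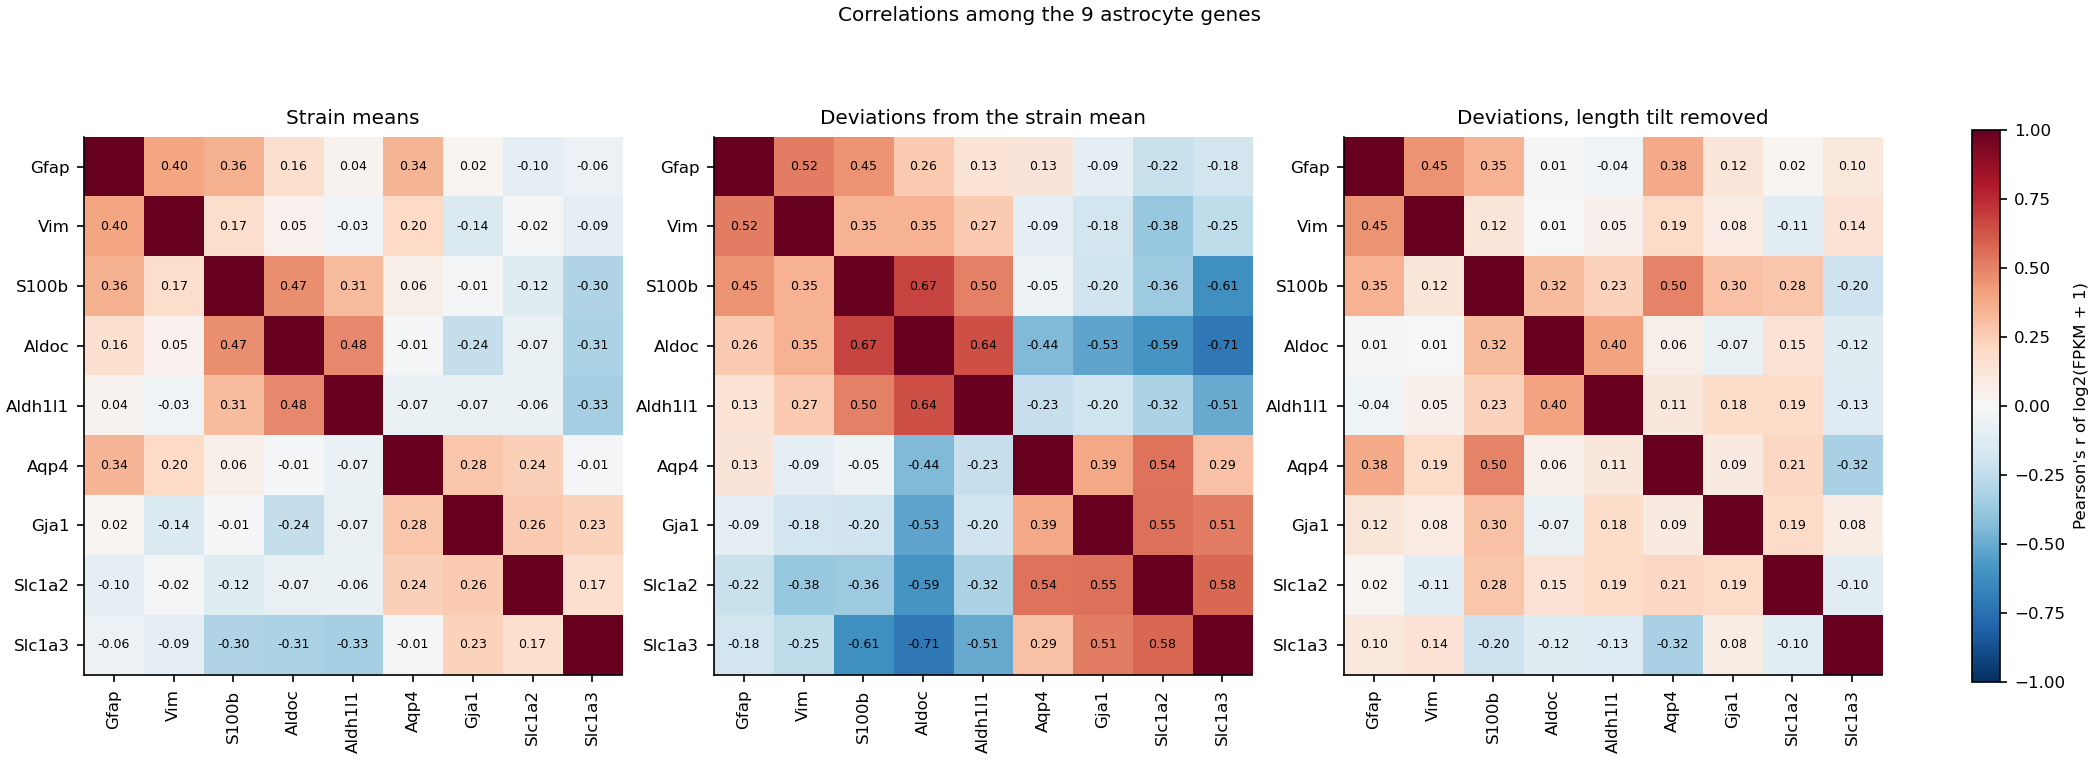
Pearson's r of log2(FPKM + 1) for each pair of the 9 genes, from -1 (blue) to 1 (red), over 99 strain means (left), over deviations of 280 mice from their strain mean (middle) and over these deviations with the length tilt of the library removed (right). The middle panel has r down to -0.71 between the 2 blocks. On the right Gfap has 0.45 with Vim, 0.38 with Aqp4 and 0.35 with S100b, and Aldh1l1 has 0.40 with Aldoc.

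The genes most like Gfap over strain means were not other members. C4b, a complement component, had the highest r both over strain means (0.54) and within strains (0.59), at 12.4 ± 7.39 FPKM, and its near-identical neighbour C4a makes the counting of its reads uncertain. It was followed over strain means by Hspb8, a small heat shock protein (0.51), Ccdc3 (0.50), Sema3b (0.50), the mitochondrial assembly factor Coa3 (0.49), which lies on chromosome 11 as Gfap does, Edem2 (0.46), Gfm1 (0.45), Lgi4 (0.44), Zfp605 (0.44) and Slc35g2 (0.43). Lowest were Tshz2 (-0.44), Cobl (-0.42) and Lrfn1 (-0.41). Among the 11496 other genes ranked, Vim came 26th, S100b 68th and Aqp4 92nd.

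Within strains the genes most like Gfap after C4b were S100a6 (0.53), Vim (0.52), the actin-severing Gsn (0.51), Hspb8 (0.48), Fcgrt (0.46), the lipid carrier Apod (0.46), S100b (0.45), Igfbp6 (0.45) and Itgb5 (0.44). Gsn had r = -0.00042 and Apod 0.039 over strain means, so these 2 followed Gfap between mice of a strain with no such relation between strains. Coa3 and Zfp605 had 0.16 and -0.17 within strains, the opposite case. Vim came 3rd and S100b 8th of 11496.

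For the other members, the nearest genes over strain means differed from one to the next. Vim was nearest to Anxa2 (0.59), Igfbp6 (0.58) and Tinagl1 (0.57), Aqp4 to Itgb8 (0.48), Mab21l1 (0.48) and Tnfrsf19 (0.47), and Gja1 to Aff4, Scn1a and Sgip1 (each 0.53). Slc1a2 was nearest to Tmem184c (0.49), Cpeb4 (0.47) and Ywhab (0.45), and Slc1a3 to Slc7a14 (0.76), Prrc2c (0.72) and Gpr165 (0.71). Aldh1l1 and Aldoc shared Ndrg2 as the nearest gene (0.62 and 0.61). S100b was nearest to Dnajb2 (0.59), Qdpr (0.58) and the myelin gene Mbp (0.58). These values include OB-547 and OB-422. The length tilt had r over strain means from -0.53 with Aldoc to 0.57 with Slc1a3, and its part in these values was not tested.

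Lists of marker genes gave the wider context. Of 30 other astrocyte genes 28 were in the table, and 4 of them were higher in strains with more Gfap (background 0.824%): the apolipoproteins Apoe (r = 0.43, adjusted p = 0.0108) and Clu (r = 0.39, adjusted p = 0.0223), Mlc1 (r = 0.36, adjusted p = 0.0357) and Ntsr2 (r = 0.34, adjusted p = 0.0482), all by limma. The other 24 did not pass, among them the glutamine synthetase Glul (r = 0.15) and the potassium channel Kcnj10 (r = 0.058), and the median r of the list was 0.12, against 0.019 over all genes. Within strains 9 were higher and 1 lower, where 14% and 13.1% of all genes were (median r 0.11, against 0.02 over all genes). Of 19 reactive astrocyte genes 13 were in the table. Only complement C3 was higher over strains (r = 0.38, adjusted p = 0.0256, limma), with 0.32 for Serpina3n (adjusted p = 0.0652), and 5 were higher within strains (background 14%).

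Markers of other cells are given with counts over strains and within strains, where the shares of all genes that passed were 0.824% higher and 0.376% lower, and 14% higher and 13.1% lower. Of 9 oligodendrocyte genes 0 passed over strains (median r -0.021) and 8 were higher within strains (median r 0.34), among them Cnp (r = 0.40) and Mbp (r = 0.38). Of 9 fibroblast and mural genes 5 were in the table, with 0 over strains and 4 within. For 8 ependymal genes the counts were 1 (Foxj1, r = 0.35) and 3, and microglia genes (8 of 9) gave 0 over strains and 1 within. Neuron genes (8 of 8) gave 0 over strains and 1 lower within. Endothelial genes (6 of 9) gave 0 and 2 lower, and thalamus genes (5 of 5) gave 0 and 2 lower. For tanycyte (8 of 11), oligodendrocyte precursor (5 of 5), choroid plexus (5 of 6) and anterior pituitary genes (6 of 7) 0 passed in either direction in both (limma).

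The summed level of the oligodendrocyte list, 1554 to 3933 FPKM over mice, had r = 0.55 with S100b over strain means and 0.60 within strains, and 0.013 and 0.37 with Gfap. Other lists also moved with S100b within strains. Their r ran from -0.33 (tanycyte) to 0.62 (other astrocyte), with 0.52 for microglia and 0.50 for neuron genes. Within strains S100b had r = -0.65 with the length tilt. The fibroblast and mural list, 25.1 to 76 FPKM, had r = 0.49 and 0.56 with Vim, and 0.18 and 0.40 with Gfap. The part of oligodendrocytes, fibroblasts and mural cells in the relation of S100b and Vim to Gfap was not tested, nor was that of the tilt in these list values.

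The promoter of Gfap is shown because STAT factors are known to act on Gfap in reactive astrocytes. Whether they did so in these mice was not tested. It covers 250 bases before to 50 after 1 start site, chr11:102897151-102897450 on the minus strand (RefSeq, GRCm38.p6). The match to TTCNNNGAA, the letters of a STAT site, is in capitals. That start site, at chr11:102897200, is where the scarce 8-exon Gfap-202 begins in the assembly. The main transcript, Gfap-201, begins at chr11:102897131, outside this stretch. The motif search for Gfap covered the same stretch only.
Gfap promoter: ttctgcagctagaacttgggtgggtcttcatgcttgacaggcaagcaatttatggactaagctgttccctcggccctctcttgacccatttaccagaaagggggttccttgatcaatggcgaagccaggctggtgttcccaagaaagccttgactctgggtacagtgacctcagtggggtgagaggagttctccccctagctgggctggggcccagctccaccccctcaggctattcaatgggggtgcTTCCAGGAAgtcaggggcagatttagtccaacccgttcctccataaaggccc
Promoters of 8 of the 9 genes, all but Aqp4, were searched. TTCNNNGAA, searched on both strands, was in the promoters of Gfap, Slc1a3 and the second Aldoc start site and in 8.30% of 32851 promoters. The promoter of Vim, which moved with Gfap, had no match. TTGGC, part of the NFI site, was absent from that of Gfap and found 2 times in Vim and 4 times in S100b, and in 46.7% of all promoters. ACAAT, a SOX motif, was in 31.0% and CANNTG, the E box, in 72.3% of all promoters, and neither was in that of Gfap or Vim.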

How the data were processed

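Hypothalamus RNA of 282 mice was sequenced by the submitters, whose processing notes name FastQC, STAR 2.3.1, Cufflinks 2.2.0, Cuffnorm 2.2.1 and the mm10 build. The deposited tables hold FPKM normalized by the authors for 14079 genes and 51024 transcripts, each of which was above 0 FPKM in 100 or more mice and passed 1 FPKM in 50 or more. FPKM gives no read depth, so no counting interval could be set. Values were taken as log2(FPKM + 1) and tested with limma 3.58.1 (R 4.3.3), with Benjamini-Hochberg adjustment over all features and a threshold of 0.05. Strains were compared by a moderated F test, and relations to Gfap by regression over strain means or with strain as a factor. Permutation tests of the 8 Gfap pairs were two-sided with 100000 resamples. Python 3.11.15, numpy 2.4.6, pandas 2.3.3, scipy 1.17.1 and matplotlib 3.10.9 were used for the rest, and the fits were tested on simulated data. The plan counted the mice with a strain, but 1 library appeared under 2 mice and was counted once, so 280 entered. The covariates of 1 alternative, mapped read number and unique percentage, came from the study's sample list.

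The 9 genes and all lists were chosen with earlier results of these data known. Named were the 9 genes and their transcripts, listed marker genes, the 10 highest and 3 lowest genes by r with Gfap over strain means and the 10 highest within strains, the 3 nearest genes of every other member, the parental strains, and the 3 highest and lowest strains of each gene, among loci with exactly 1 name. The neighbours of Aldoc, the groups by the 8-exon Gfap transcript and the 2 blocks of members were chosen after their values were seen. So were 5 added alternatives. Some left out the 18 mice, OB-547 with OB-422, or OB-678 with OB-585. Others took the length tilt as covariate or kept OB-273 and OB-274 as 2 mice.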

Additional observations from a re-analysis of the deposited data

How the results depend on the processing

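No paired analysis was possible because replicate numbers only follow accession order and mark no shared litter or day. The number of the 8 other members that moved with Gfap within strains, 5 as reported, was 3 with quantile normalization, with ranks, without OB-547, without OB-547 and OB-422, and with the length tilt as a covariate. Over strain means the number, 3 as reported, was 1 with mapped reads and unique percentage as covariates, with FPKM without log, in BXD strains alone and with the length tilt, and 0 in AXB/BXA, BXH, CXB or inbred strains alone, where fewer strains were tested. Parental contrasts that passed, 1 as reported, numbered 3 without OB-547, 4 without OB-547 and OB-422 and 6 with the length tilt. Without the 18 mice, 19 transcripts and 15 shares passed in place of 29 and 25. Leaving out each replicate in turn gave 0 to 3 members over strain means, 2 to 3 within strains, 0 to 1 parental contrasts, 6 to 7 genes, 22 to 24 transcripts and 17 to 20 shares.

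The sign of r with Gfap over strain means changed for Gja1 without a replicate (-0.027 to 0.073), in BXH strains for Aqp4 (-0.11), Gja1 (-0.18), Aldh1l1 (-0.11), Aldoc (-0.85) and S100b (-0.60), in CXB strains for Gja1 (-0.18), in inbred strains for Slc1a3 (0.088), and with the length tilt for Slc1a3 (0.13) and Aldh1l1 (-0.073). Within strains it changed with quantile normalization for Gja1 (0.046), Slc1a3 (0.021) and Aldh1l1 (-0.028), without a replicate for Gja1 (-0.23 to 0.071), and with the length tilt for Gja1 (0.12), Slc1a2 (0.020), Slc1a3 (0.10) and Aldh1l1 (-0.039). The cause was not tested. Values for single genes were also followed under all alternatives, with no single transcript among them. Of the parental contrasts, only those of Gfap and that of Aldoc in A/J were followed, so others that newly passed are not counted. Of the followed values, 447 kept direction and side of the threshold, 55 no longer passed, 14 newly passed and 18 changed sign. FPKM holds no depth, so counting error could not be separated from the spread between mice.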

Other observations

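Mouse OB-627, whose labels name 2 strains, entered no comparison between strains or with Gfap, and was included only in counts and ranges over all mice. It had 64.3 FPKM of Gfap, 16.0 of Vim, 29.9 of Aqp4, 53.0 of Gja1, 176.5 of Slc1a2, 129.2 of Slc1a3, 15.7 of Aldh1l1, 498 of Aldoc and 97.7 of S100b. Its Vim was higher than in only 1.07% of mice and its S100b higher than in 96.1%. The 8-exon transcript held 5.05% of its Gfap.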
